A study of Mus musculus with 12 samples.

Results

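The nuclear genes of oxidative phosphorylation were followed as small RNA targets in maps of Argonaute 2 (Ago2) from adult C57BL/6 mouse forebrain. Members were chosen by symbol: every gene whose name starts with Nduf, Uqcr, Atp5 or Cox4 to Cox8, together with Sdha, Sdhb, Sdhc, Sdhd, Cyc1 and Cycs. They held 717 of the 250567 deposited peaks, on 75 gene symbols. A peak is a short stretch of target RNA that was recovered in chimeric reads, in which a small RNA had been ligated to the RNA it lay on inside the Ago complex, so each peak names a gene and a small RNA. The 12 libraries came from sex- and age-matched mice of 10 to 12 weeks, and the tissue received 3 rounds of ultraviolet cross-linking. Anti-Ago2 was used on whole forebrain for 4 libraries (the reps 1-4 list) and 3 more (the reps 5-7 list). Anti-myc was used for 3 libraries to pull down a tagged Ago2 from excitatory neurons (the excitatory list), and 2 libraries with control IgG served as negative control. The tag depends on Camk2a-Cre/ERT2, an inducible recombinase driven by the promoter of a kinase of excitatory neurons, and on 2 mg tamoxifen a day for 5 days with 14 to 21 days before harvest. The labels give this treatment for all samples alike, so they do not tell which of the other mice also carried the tag.

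Oxidative phosphorylation is the set of reactions by which mitochondria make most of a neuron's ATP. Complexes I and II take electrons from NADH and succinate, complex III passes them to cytochrome c, complex IV gives them to oxygen, and ATP synthase uses the resulting proton gradient. Most subunits are encoded in the nucleus, translated in the cytosol and imported, and a few are encoded in mitochondrial DNA. MicroRNAs guide Ago2 to messenger RNAs mainly by pairing of their seed, the stretch near their 5′ end, and are best known for sites in 3′ untranslated regions (UTRs).

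The small RNAs below are those with the most member peaks in reps 1-4 and those joined to a member in the smaller lists, where RefSeq gave a mature sequence. Each is written 5′ to 3′ with bases 2 to 8, the seed, in capitals. The 3 miR-29 names share 1 seed, and let-7c-5p stands for 8 let-7 names of 1 seed.

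miR-9-5p: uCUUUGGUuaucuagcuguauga
miR-128-3p: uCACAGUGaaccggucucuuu
miR-26a-5p: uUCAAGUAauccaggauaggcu
miR-29a-3p: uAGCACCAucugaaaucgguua
miR-29b-3p: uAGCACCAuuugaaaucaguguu
miR-29c-3p: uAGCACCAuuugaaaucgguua
let-7c-5p: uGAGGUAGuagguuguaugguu
miR-125b-5p: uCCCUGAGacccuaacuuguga
miR-127-3p: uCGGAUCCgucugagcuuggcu
miR-138-5p: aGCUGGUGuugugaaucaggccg
miR-99a-5p: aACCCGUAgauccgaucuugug
miR-103-3p: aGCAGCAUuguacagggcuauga

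The place where a member peak could be read against sequence is the start of a gene, since RefSeq (GRCm38.p6) windows of 300 bases, from 250 before to 50 after each gene start, were at hand. In Cox6a1, a subunit of complex IV, the miR-29c-3p peak over the first coding bases scored 4, and those of miR-29a-3p and miR-29b-3p scored 3 each. The stretch is shown because all 3 names share the seed that pairs with it. It is chr5:115348919-115348948, minus strand, written 5′ to 3′ on the gene's strand, with the 6 bases complementary to miR-29 bases 2 to 7 in capitals.

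Cox6a1 start: gatggcgtcggcGGTGCTgtcagcgtctcg

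The 6 bases lay inside the miR-29c-3p peak, at positions 115348931 to 115348936. Of 7 member peaks inside such windows, 4 held the 6-base match to their own small RNA within 20 bases, the 3 of Cox6a1 and 1 of Atp5b. The 3 of Cox6a1 overlap at 1 place. Those without a match were miR-29a-3p (score 8) and miR-29b-3p (score 6) on Atp5k and miR-9-5p (score 4) on Ndufa7. Over all 160 peaks in windows with a mature sequence at hand, 68 (42.5%) did. The miR-29 match GGTGCT was present on the transcribed strand of 8.56% of 32851 windows, and on either strand of 16.2%, so a match is a description of the letters and not a site.

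Members made up a small share of each list. In reps 1-4 they held 694 of 246180 peaks (0.282%, Wilson 95% interval 0.262 to 0.304), on 75 of 11352 target genes. The reps 5-7 list had 18 member peaks of 3611 (0.4985%, 0.316 to 0.787) on 14 genes. The excitatory list had 5 of 766 (0.653%, 0.279 to 1.52) on 4 genes. IgG had 0 of 10 peaks on a member, which at this depth allows a share of up to 30% (3 peaks of the total), and 0 of the 694 reps 1-4 member peaks overlapped an IgG peak. With 10 IgG peaks on 3 genes, this overlap count says little about background. The same share over all reps 1-4 peaks was not computed. Each list was called over pooled libraries and is 1 observation, so these intervals cover counting error only. The share in reps 1-4 lay below that in reps 5-7 with intervals that did not overlap, whereas the excitatory interval covered both; weighted by score, the 3 shares were 0.283%, 0.255% and 0.221%. Among coding sequence peaks alone the member shares were 0.952% (0.875 to 1.04), 1.42% (0.875 to 2.29) and 1.42% (0.610 to 3.29), with overlapping intervals.

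The lists differ in size and in what they sample. Reps 5-7 and the excitatory list share 3 library numbers in the calling summaries and reps 1-4 shares none, the meaning of these numbers not being stated. In the excitatory list Camk2a, the gene whose promoter drives the recombinase, had 14 peaks and the other 6 excitatory neuron markers looked up had 0. Camk2a also led these 7 markers in whole forebrain, with 524 of their 625 peaks in reps 1-4 and 24 of 25 in reps 5-7. Markers of inhibitory neurons, astrocytes, microglia and vascular cells had 0 peaks in the excitatory list. They had 96, 913, 21 and 49 in reps 1-4, and 4, 35, 0 and 0 in reps 5-7. The 6 oligodendrocyte lineage genes had 4 in all, against 315 in reps 1-4 and 13 in reps 5-7. With 766 peaks in the excitatory list, a count of 0 does not show that a cell type was absent. The part of other cell types in the excitatory list was not tested. Antibody, tag and cell type cannot be told apart in comparisons with this list.

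Peaks on the nuclear oxidative phosphorylation genes lay mostly in coding sequence. In reps 1-4, 530 of the 694 peaks (76.4%, 73.1 to 79.4) were annotated to coding sequence, against 22.6% of all peaks in the list. Only 54 (7.78%, 6.01 to 10.0) were in 3′ UTRs, against 18.7% of all peaks, and 23 (3.31%, 2.22 to 4.92) were in 5′ UTRs, against 0.956%. Introns had 84 (12.1%, 9.88 to 14.7) against 47.6%, and the remaining 3 fell on processed pseudogenes. Since introns hold many peaks of long genes, the comparison was repeated within coding sequence and UTRs, where 87.3% (84.4 to 89.7) of member peaks and 53.5% of all peaks were coding. In reps 5-7, 16 of 18 member peaks were in coding sequence, 1 was in the 5′ UTR of Atp5d and 1 in the 3′ UTR of Cox6a1. All 5 excitatory member peaks were in coding sequence, against 45.8% of all peaks of that list.

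**Figure D1:**
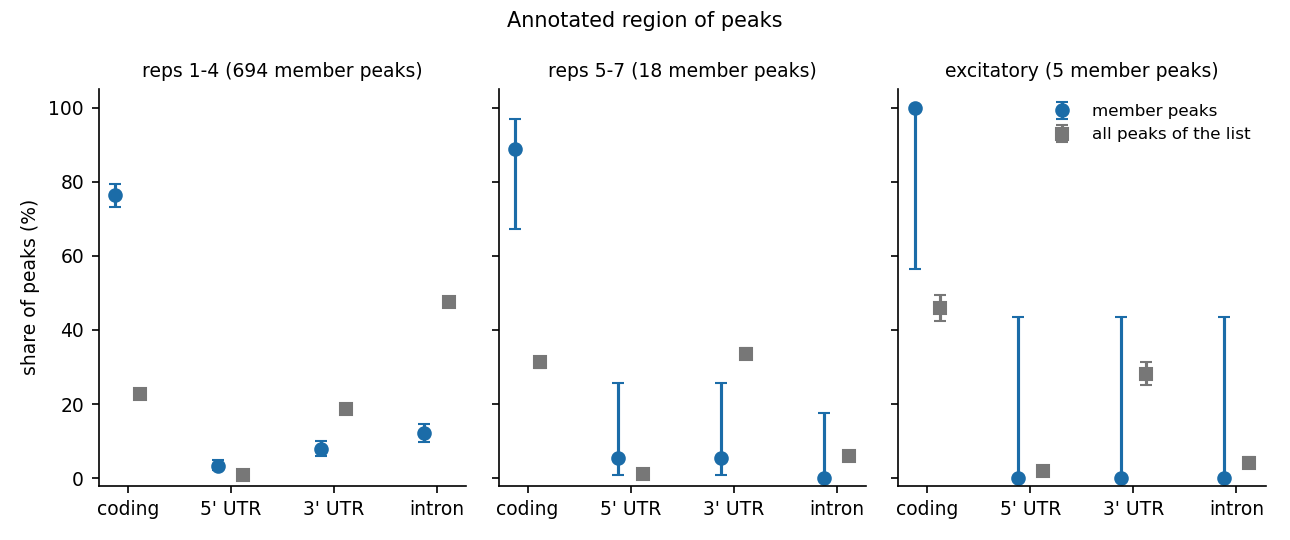
Share of peaks (percent) by annotated region for member peaks (circles) and all peaks of a list (squares) in reps 1-4, reps 5-7 and the excitatory list, with Wilson 95% intervals for counting error. The coding share of member peaks lies above that of all peaks in each list, from 76.4% against 22.6% in reps 1-4 to 5 of 5 against 45.8% in the excitatory list.

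The tilt to coding sequence was seen gene by gene. Of the 43 members with at least 5 coding sequence and UTR peaks, 18 (41.9%) had all of them in coding sequence and 0 had under 50% there. Over all 5145 genes with as many peaks, 9.87% were all coding and 44.3% had under 50%. The median gene had 92.9% of these peaks in coding sequence among members and 53.6% over all genes. The share did not rest on the leading genes, since it was 74.3% without the 4 members with the most peaks. Members are short genes, with a median genomic length of 7600 bases (72 genes) against 31622 for protein-coding genes with a peak (10088 genes). UTR and transcript lengths were not measured here, so the part of length in these shares was not tested.

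Other metabolic genes had coding shares of similar size, and the regulators looked up had lower ones. Of 12 citric acid cycle genes, 11 had 229 peaks, 73.4% of them coding, and Fh1, fumarate hydratase, had 23. All 16 glycolysis genes had peaks, 435 in all with 74.0% coding, led by Aldoc, an aldolase, with 98. The 6 genes of mitochondrial biogenesis, such as the coactivators Ppargc1a with 9 peaks and Ppargc1b with 32, had 64 peaks with 21.9% coding and 26.6% in 3′ UTRs. Assembly factors and inhibitors outside the member pattern had peaks on 24 of 29 genes, 108 in all, with 32.4% coding. The 13 subunits encoded in mitochondrial DNA all had peaks, 1179 in reps 1-4, 69 in reps 5-7 and 5 in the excitatory list. Their messages have almost no UTR, and all 1179 were coding.

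Many of the member peaks annotated to introns lay at the edge of an exon. Of the 84 member peaks annotated to introns, 41 (48.8%, 38.4 to 59.3) ran past the edge of their intron, against 3.31% of 117113 intron peaks over all genes. These shares depend on how many peaks lay inside introns, 43 for members and 113237 over all genes. Set beside coding sequence peaks, peaks past an edge numbered 41 to 530 for members and 3876 to 55664 over all genes. All 41 shared exactly 1 base with the intron as annotated, and in 29 of them that base was also the first or last base of a coding feature listed for the same gene. For 22 of the 41 a peak of the same small RNA stood at the opposite edge of the same intron, and in 16 of these both peaks had 1 score. Examples are Cox6b1, a complex IV subunit, with miR-27b-3p at 20 and 20, and Ndufs1, a core subunit of complex I, with miR-125b-5p at 12 and 12. In Cox6c, another complex IV subunit, the fourth-highest member peak, miR-124-3p at 65, was one of the 41, and the peak across the intron scored 23. Leaving out these 41 peaks, coding sequence held 81.2% of member peaks. The other 43 lay inside introns as annotated, 9 in Ndufs4, a complex I subunit, and 7 in the assembly factor Ndufaf2, whose genes span 100300 and 106064 bases. Among the 43 was miR-26a-5p on Atp5o with a score of 6. It lay 239.1 kilobases from the RefSeq start of that gene, which spans 6.408 kilobases, so it was outside the RefSeq gene.

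Peaks were spread unevenly over the genes. The median member with a peak had 6 peaks and the median gene of the list 5, and for coding sequence peaks 5 and 3. The 4 leading members held 176 of the 694 peaks (25.4%) and 9 members had 1 peak. The highest counts were 54 for Atp5b, the beta subunit of the ATP synthase catalytic head, 45 for Sdha, the flavoprotein of complex II, 42 for Atp5a1, the alpha subunit of that head, and 35 for Uqcrc1, a core protein of complex III. These are large subunits, and counts of peaks are not per length.

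**Figure D2:**
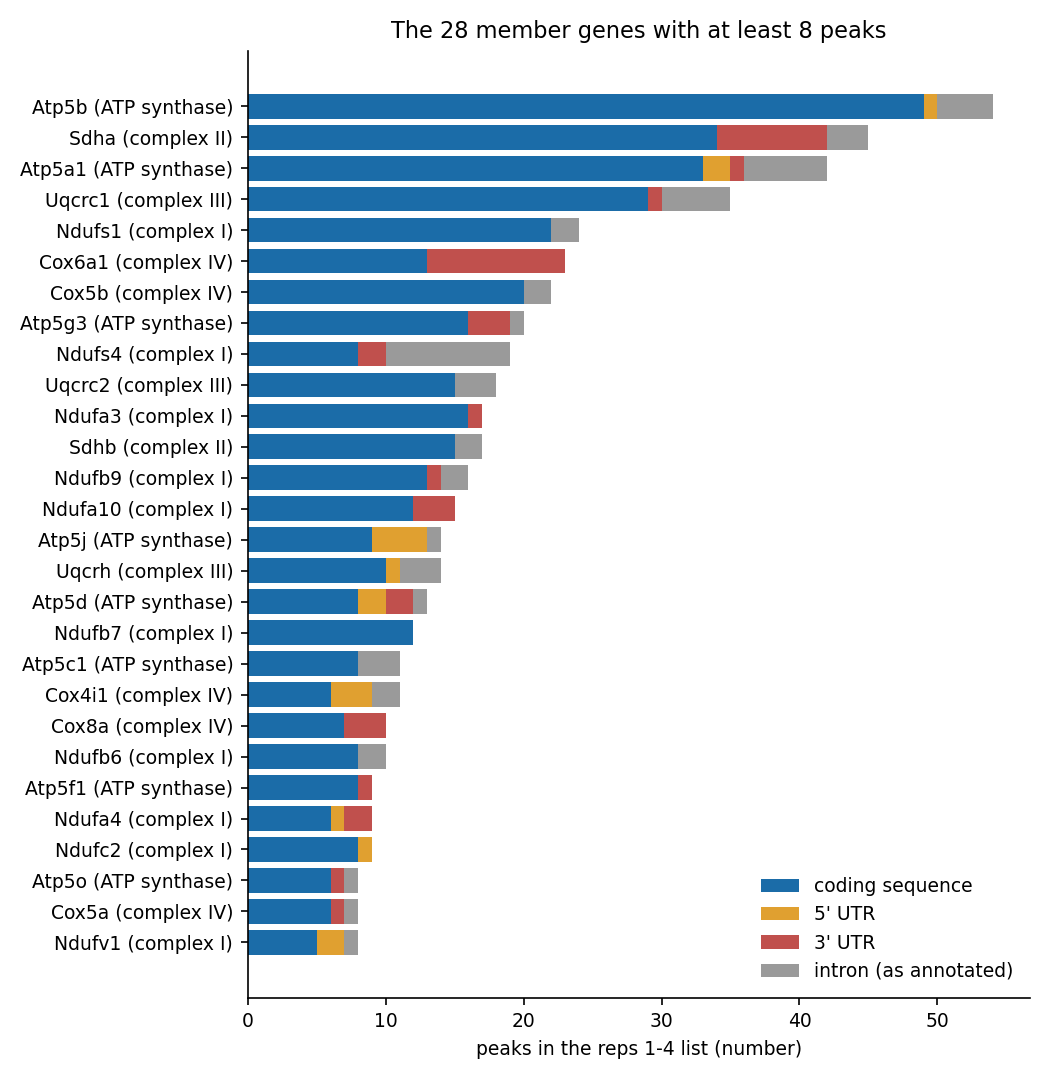
Number of reps 1-4 peaks on each of the 28 members with at least 8 peaks, stacked by annotated region and labelled with a complex by gene symbol. By this rule Ndufa4, a protein now assigned to complex IV, is labelled complex I. Coding sequence makes up most of nearly every bar. Departures include Ndufs4 with 9 peaks in introns, Cox4i1 with 6 coding peaks of 11 and Cox6a1 with 10 peaks in its 3′ UTR.

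Complex I, the NADH dehydrogenase, had peaks on 29 of 41 RefSeq genes of its naming pattern, 222 peaks in all with 80.6% in coding sequence. Genes were grouped by symbol, so these counts include the 9 peaks of Ndufa4, a protein now assigned to complex IV. Ndufs1, with the iron-sulfur clusters that carry electrons, had 24, Ndufs4 19 and Ndufa3 17. Ndufs1 peaked with miR-124-3p at a score of 28. Ndufa3 had miR-124-3p peaks of 41 at 2 places in neighbouring coding exons, chr7:3619502-3619507 and chr7:3620001-3620011, and each place held the same 5 small RNAs. Scores were also equal for miR-128-3p (4 and 4) and miR-382-5p (3 and 3), and differed for miR-9-5p (6 and 5) and miR-541-5p (6 and 4). Whether the same reads gave both places was not tested, so they may not be separate sites. Ndufb9 had 16 peaks, among them miR-138-5p at 40 and miR-29a-3p at 38. Ndufb7 had 12, all coding, of which 9 were let-7 names. No peak was listed for 12 pattern genes, among them Ndufs3, Ndufab1 and Ndufb2, and 3 peaks make 0.00122% of the list. The assembly factors Ndufaf had peaks on 5 of 8 genes, 22 in all with 50% coding: 7 on Ndufaf2, all in introns with a top score of 3, 6 on Ndufaf4, all coding, and 4 each on Ndufaf5 and Ndufaf7.

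Complex II, succinate dehydrogenase, had peaks on 4 of 4 genes, 71 in all with 78.9% coding. Sdha had 45, of which 34 were coding and 8 in the 3′ UTR. Its leading peak was miR-124-3p at 29, followed by miR-26a-5p at 21 in the 3′ UTR and miR-29a-3p at 17. Sdhb, the iron-sulfur subunit, had 17, led by miR-124-3p at 53 and miR-9-3p at 45. The membrane anchors Sdhc and Sdhd had 5 and 4.

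Complex III had peaks on 8 of 9 genes, 88 in all with 81.8% coding, and Uqcrb had 0. Uqcrc1 had 35 peaks and its fellow core protein Uqcrc2 18. Uqcrh, the hinge protein, had 14. Cyc1, the cytochrome c1 subunit, had 5, and Uqcr11, a small subunit, had 3 that overlapped at 1 place. Cycs, the somatic cytochrome c that carries electrons from complex III to IV, had no peak in any list.

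Complex IV, cytochrome c oxidase, had peaks on 8 of 17 genes of its naming pattern, which leaves out Ndufa4, 93 in all with 69.9% coding. Cox6a1 had 23, Cox5b 22 and Cox4i1 11. Cox6a1 had the most 3′ UTR peaks of any member, 10 of 23, and its miR-124-3p peaks scored 35 in coding sequence and 34 in the 3′ UTR. Cox4i1 held the second-highest member peak, miR-124-3p at 86, at chr8:120672792-120672795. Cox6c held the third-highest, miR-124-3p at 70, at the 1-base peak chr15:35937176. The 9 genes with 0 peaks included the isoforms Cox4i2, Cox6a2, Cox7a1 and Cox8b, known from other tissues, and also Cox7a2 and Cox7c.

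ATP synthase had peaks on 15 of 17 genes, 190 in all with 76.3% coding, and it supplied 9 of the 18 reps 5-7 member peaks and 2 of the 5 excitatory ones. The other 2 pattern genes, Atp5md and Atp5mpl, go by older names in the lists, outside the pattern. Atp5b had 49 coding peaks of 54 and 33 small RNAs. Its leading peaks were miR-128-3p at 60, miR-9-5p at 46 and miR-181a-5p at 29. Atp5g3, which encodes the c-ring protein that turns with the proton flow, had 20 peaks, led by miR-26a-5p at 62 and miR-29b-3p at 56. Its paralogs Atp5g1 and Atp5g2, which code for the same mature protein, had 2 each, in both genes a pair with a score of 3 at the 2 edges of 1 intron. Whether reads were divided among these paralogs was not tested. Atp5d had 13 peaks with the highest median score of the leading members, 13, against 5 over all member peaks. Atp5j2 was an exception to the coding pattern, with 4 of its 5 peaks in the 3′ UTR and 0 coding.

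**Figure D3:**
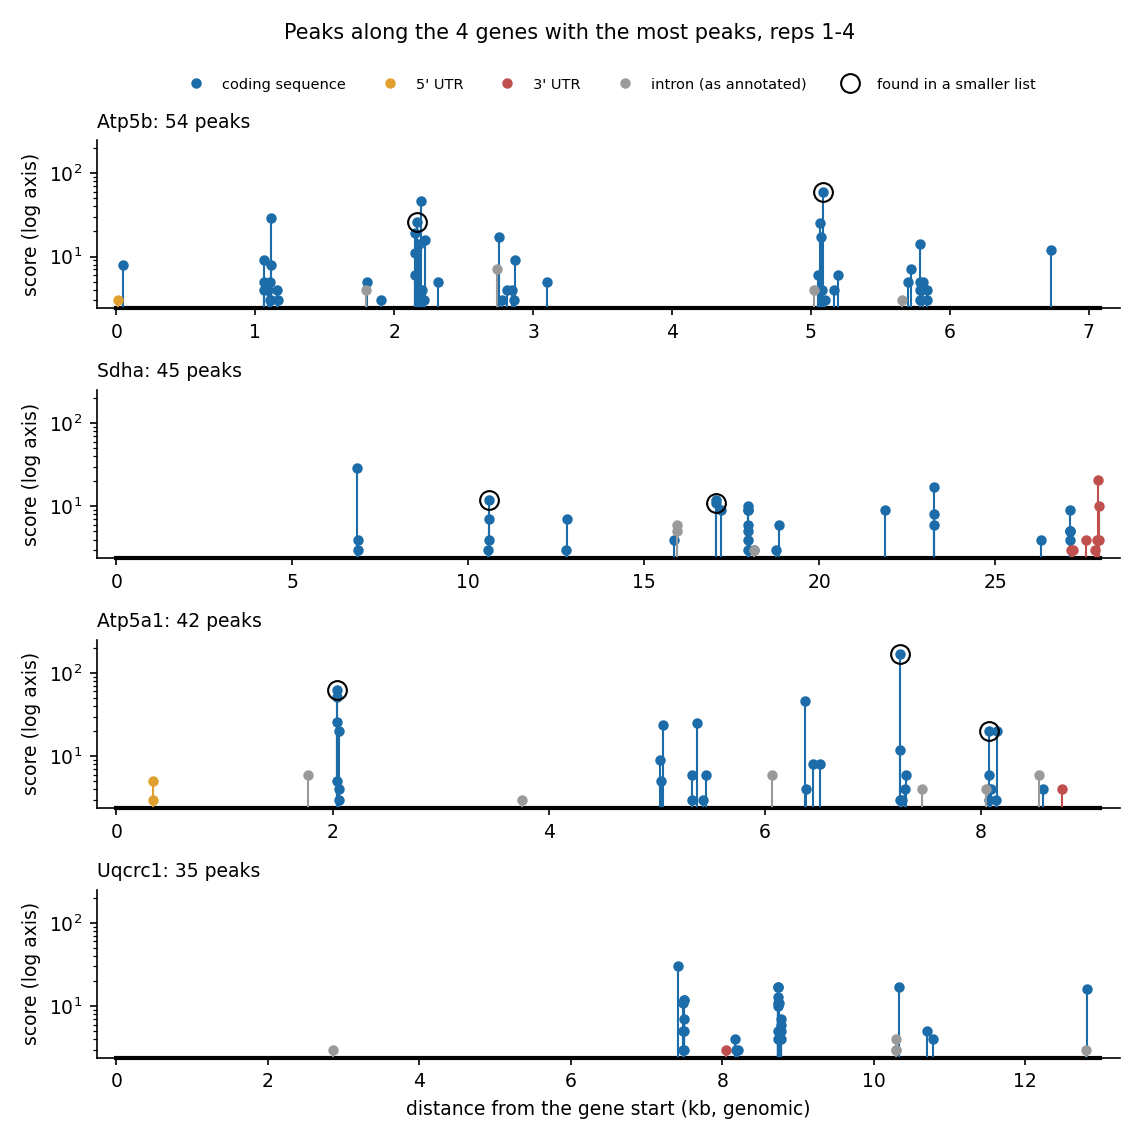
Peaks of reps 1-4 along Atp5b, Sdha, Atp5a1 and Uqcrc1, each placed at its distance from the gene start (kilobases of genome, so introns are included), with the deposited score on a log axis; colour gives the annotated region and open circles mark peaks also found in a smaller list. Peaks stand in clusters over coding exons, and circled peaks include miR-128-3p at 60 in Atp5b and miR-124-3p at 169 in Atp5a1, while Uqcrc1 has none circled.

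The 90 small RNAs with a member peak, of 746 in the list, were led by abundant brain microRNAs, and the first 10 made up 61.7% of member peaks. MiR-124-3p, the classic neuronal microRNA, had 135 peaks on 50 members (19.5%, 16.7 to 22.6), below its 29.3% of all peaks. Within coding sequence it had 15.8% (13.0 to 19.2) of 530 member peaks against 19.7% of all coding peaks, and in 3′ UTRs 29.6% of 54 against 22.7%. MiR-9-5p, another microRNA of the neural lineage, followed with 57 peaks, 8.30% (6.24 to 10.96) of the coding peaks against 10.98%. MiR-128-3p had 45, miR-26a-5p 41, miR-125b-5p 21 and miR-127-3p 17.

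Among coding sequence peaks, miR-29 was the family, of the 10 with the most member peaks, whose interval on members lay above its share of the list; over peaks of all regions the intervals of let-7, miR-127-3p and miR-24-3p did so too. Its 3 names, miR-29a-3p with 37 peaks, miR-29b-3p with 33 and miR-29c-3p with 17, had 87 peaks on 25 members. They made 14.2% (11.4 to 17.4) of member coding peaks against 9.40% of all coding peaks, with no set test made. With each gene counted once per family the shares were 8.08% and 6.79%, so the gap came largely from genes with several miR-29 peaks. Sdha had 11, Atp5b 9, Atp5g3 7 and Ndufb9 6. The 6 of Ndufb9 were the 3 names, each at both edges of 1 intron, so these are counts of peaks and not of sites. Without the 4 members with the most peaks the share was 13.5%. The let-7 names had 97 peaks on 25 members, and their share of coding peaks, 15.7% (12.8 to 19), was close to the 17.0% of all coding peaks. In 3′ UTRs they had 1 of 54 member peaks, against 10.6% of all 3′ UTR peaks. Let-7 peaks were concentrated on Uqcrc1 with 17, Cox5b with 11 and Sdha with 10.

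**Figure D4:**
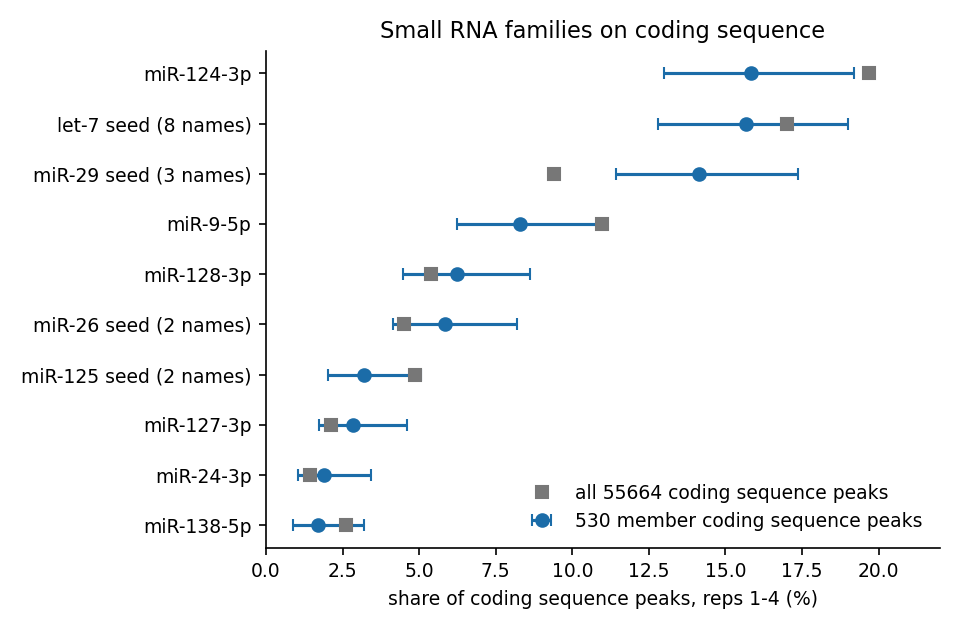
Share of reps 1-4 coding sequence peaks (percent) of the 10 seed families with the most member peaks, for the 530 member peaks (circles, with Wilson 95% intervals for counting error) and for all 55664 coding peaks (squares). The miR-29 interval lies above its share of all coding peaks, and the miR-124-3p and miR-9-5p intervals lie just below theirs. The let-7 interval covers its share.

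Different small RNAs often lay on the same place. Overlapping peaks of a gene were merged into 421 member sites, of which 131 (31.1%) carried over 1 small RNA, against 14.8% of 174461 sites over all genes. For sites led by a coding peak the shares were 37.1% of 294 and 24.5% of 35005. The busiest was in coding sequence of Uqcrc1, chr9:108945371-108945437, with 12 small RNAs, of which 6 were let-7 names and 3 miR-29 names, and a top score of 17. A site in Cox5b, chr1:36692451-36692487, had 11 with 7 let-7 names, and one in Ndufb7, chr8:83570858-83570913, had 10 with 8 let-7 names. Names of 1 family differ by few bases, and whether reads were divided among them was not tested. By contrast, the 3′ UTR site of Cox6a1, chr5:115345671-115345767, had 9 small RNAs of 8 seeds, and a coding site of Sdhb, chr4:140973670-140973710, had 7 of 7 seeds.

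Every member peak of the smaller lists was found again in the large one. With the same small RNA and at least 1 base of overlap, 18 of 18 reps 5-7 member peaks and 5 of 5 excitatory ones were in reps 1-4, where over all peaks 87.5% and 93.1% were. Demanding that the overlap cover 50% of both peaks left 9 of 18 and 2 of 5, against 45.3% and 56.5% over all peaks. MiR-124-3p named 11 of the 18 reps 5-7 member peaks, against 28.2% of that list, and 2 of the 5 excitatory ones, against 37.5%. The miR-29 seed named 4 of 18, against 11.2% of the list, and 1 of 5, against 14.0%. The highest reps 5-7 scores were miR-124-3p on Atp5a1 at 9, on Cox4i1 at 7, on Cox6c at 6 and, at 5 each, peaks on 4 genes: miR-124-3p on Atp5d, Cox6a1 and Uqcrq and miR-29b-3p on Atp5g3. The others scored 3 or 4. They were miR-124-3p on Atp5j, Cox6a1, Ndufs1, Sdhb and Uqcr11, miR-29 names on Atp5a1, Atp5b and Sdha, miR-99a-5p on Atp5a1, miR-128-3p on Atp5b and miR-103-3p on Atp5o, a stalk subunit of ATP synthase.

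There were 3 interactions that appeared in all of the reps 1-4, reps 5-7 and excitatory lists. They were 3 of the 5 excitatory member peaks (60%), near the 55.5% of all 766 excitatory peaks that were also in reps 5-7. Atp5a1 with miR-124-3p scored 169, 9 and 3, at position 77781023 of chromosome 18 in reps 1-4. Atp5a1 with miR-29a-3p scored 63, 3 and 5, at positions 77775808 to 77775817. Uqcr11 with miR-124-3p scored 39, 3 and 3, at chr10:80404215-80404221. All 3 were in coding sequence, and whether scores are scaled to library size is not stated, so they are not compared across lists. The excitatory list also held miR-138-5p on Ndufb9 and miR-128-3p on Sdha, both with a score of 3, where reps 1-4 had 40 and 12.

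Which member peaks of reps 1-4 were found in a smaller list went with their score. The 20 that were had scores of 11 to 169 with a median of 39.5, and the 674 that were not had a median of 5. Below a score of 10, 0 of 321 with scores of 3 or 4 and 0 of 213 with scores of 5 to 9 were found, against 0.0532% and 0.332% of all peaks of such scores. Between 10 and 29, 6 of 124 (4.84%) were, against 3.65% of all peaks of such scores, and from 30 up 14 of 36 (38.9%), against 34.0%. Within a score range the members' share was thus near that of all peaks.

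**Figure D5:**
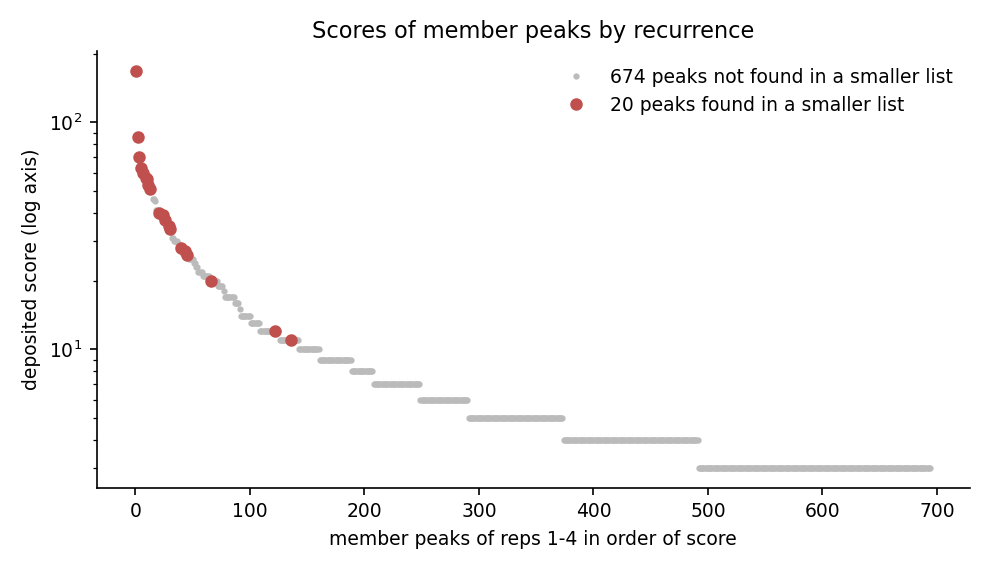
Deposited score (log axis) of the 694 member peaks of reps 1-4 in order of score, with the 20 that were found again in the reps 5-7 or excitatory list marked in red. The marked peaks lie between 11 and 169, and the long tail of peaks with scores of 3 to 9 holds none. Over all peaks of the list, 0.0532% with scores of 3 or 4 and 0.332% with scores of 5 to 9 were found again.

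No member gene passed the comparison of lists. Each gene with at least 10 peaks in a pair of lists together was tested by Fisher's exact test, two-sided, of its peaks against all others, with Benjamini-Hochberg adjustment over all genes tested and a threshold of 0.05. Between the excitatory list and reps 1-4, 11 of 4103 genes passed (0.268%), and of 22 members tested 0 passed and 1 had an unadjusted p under 0.05. That was Atp5a1, with 2 of 766 peaks (0.261%, 0.0716 to 0.947) against 42 of 246180 (0.0171%, 0.0126 to 0.0231), an odds ratio of 15.3 and an exact p = 0.00834 (adjusted p = 0.713). Ndufb9 and Sdha had 1 excitatory peak each, and the other 19 had 0, as did 89.7% of all genes tested. Between reps 5-7 and reps 1-4, 55 of 4132 genes passed (1.33%), and of 22 members 0 passed and 1 had an unadjusted p under 0.05, again Atp5a1, with 3 of 3611 peaks (0.0831%), an odds ratio of 4.87 and an exact p = 0.0273 (adjusted p = 0.527). The 2 comparisons share the reps 1-4 list. Between the excitatory list and reps 5-7, 32 genes were tested and no member reached the minimum, the most being 5 peaks for Atp5a1. For members with 0 peaks in a smaller list, the depth was too low for this test to detect a difference.

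The 3 pairs known from work on mitochondrial microRNA targets were looked up. MiR-210-3p, a hypoxia microRNA, had 21 peaks in reps 1-4, of which 1 with a score of 4 was in the 3′ UTR of Ndufa4, its known target and a protein now assigned to complex IV, and 1 in coding sequence of Sdhb. MiR-338-3p, described as acting on Cox4i1 and Atp5g1 in axons, had 103 peaks in reps 1-4, with 0 on either gene or on any other member. Cox4i1 had 11 peaks of other small RNAs and Atp5g1 2. Members held 0.282% of all reps 1-4 peaks, so 103 peaks are too few for a count of 0 to show that a pair is absent.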

How the data were processed

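The authors deposited 1 peak list with annotation for each of 4 groups of libraries. Per the deposited calling summaries, peaks were called over pooled libraries on mm10 with at least 3 reads and 2 libraries, and mm10 is also named in the submitters' processing notes. For aligner and peak caller, the sources used here give no name. The score of a peak was computed by the authors and its definition is not stated; the lowest is 3. Peak counts depend on depth, and depth per library was not used. Members and lists were chosen with earlier results of these data known. Shares carry Wilson 95% intervals, which cover counting error only, since each list is 1 pooled observation. Reads had no molecular identifiers. Genes were compared by Fisher's exact test (scipy 1.17.1, Python 3.11.15), tested on simulated data. Gene names and lengths came from RefSeq (GRCm38.p6), in which 75 of 75 symbols matched, 3 under a newer name. Named were members with a peak in a smaller list, the 3 with most peaks per complex, the 5 highest peaks, the small RNAs with most member peaks and 3 known pairs. Other members, the busiest sites and the peaks at intron edges were chosen after their values were seen. Alternatives were a score minimum, other regions, subunits only, other overlaps and test minimums.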

Additional observations from a re-analysis of the deposited data

How the results depend on the processing

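Of 60 alternatives over 16 results, 45 left the value within its counting interval or its count within 1.5 times, and no member passed a per-gene test under any. The 45 include all alternatives of the per-gene tests, where a count of 0 was set against 0. They also include overlap with any small RNA, which could not lower a share already at 100%. The tally is therefore not a measure of how robust the results are. Keeping only peaks that reached the median score, the member share was 0.334% in reps 1-4 and 0.233% (1 gene) in the excitatory list, the coding share 79.8% and the intron share 8.76%. With coding sequence and UTR peaks only, the reps 1-4 member share was 0.584%, and among its highest-scoring peaks, equal in number to reps 5-7, 0.36%. Summed scores gave 0.255% in reps 5-7 and 0.221% in the excitatory list. Merged sites gave a coding share of 69.8% and an intron share of 16.2%. A reciprocal overlap of 50% found 50% of reps 5-7 and 40% of excitatory member peaks again. Chosen after seeing the data, leaving out intron peaks past their edge gave a coding share of 81.2%, and counting each gene once per seed family a miR-29 share of 8.08%. Seed matches over all peaks were not run, for want of a genome here. No paired analysis was possible because each list pools its libraries with no column per replicate, and for that reason no replicate could be left out. Between the excitatory list and reps 5-7 no member reached 10 peaks, so the count of 0 there says nothing.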

Other observations

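Intron-edge peaks were also found on genes outside oxidative phosphorylation. Over all genes of reps 1-4, 3738 of 117113 intron-annotated peaks (3.19%) ran past their intron's edge while sharing 1 base with it, and 2128 of these (56.9%) had a peak of the same small RNA at the opposite edge, 1551 of them with 1 score for both. Among members the corresponding counts were 41 of 84 intron-annotated peaks (48.8%), 22 of 41 (53.7%) and 16. The shares of intron-annotated peaks depend on how many peaks lay inside introns, 43 for members and 113237 over all genes. Whether both peaks of such a pair came from the same reads was not tested.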
